A study of Mus musculus with 54 samples.

Results

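The TALE homeobox genes Meis1, Meis2, Meis3, Pbx2, Pbx3, Pbx4, Pknox1 and Pknox2 were followed in mouse embryonic stem (ES) cells leaving pluripotency. They were chosen by name, and all 8 are listed in both deposited expression tables, among 38363 entries in the retinoic acid (RA) table and 39055 usable entries in the LIF table. In the RA set, 46C cells, an ES line with GFP in the Sox1 gene, were kept for a day in serum-free N2B27 medium with 2 inhibitors and LIF and then given 2 µM RA in N2B27. The mutant cells lack 58 kb of the locus of Haunt, a long noncoding RNA gene next to the HOXA cluster (58 kb KO, libraries KO-i and KO-j), and were set against wild-type 46C cells (WT, libraries WT-1 and WT-2), with a library of each name at days 2 and 4. The sources used here do not say whether libraries of a group came from separate clones or cultures, so the p-values measure only the spread between these libraries. That spread may be technical, although KO-i and KO-j differed from each other on chromosome 1 on both days, with the values given below. In the LIF set, wild-type ES lines (CJ7, JF4 and J1) grown in serum had LIF withdrawn, and the columns of days 0, 2 and 6 are averages made by the authors from 3, 2 and 3 libraries, while that of day 4 is a CJ7 library. Its single libraries of derived cells are mesendoderm (ME, cells with GFP under the T gene, sorted for GFP after 6 days without LIF), neural stem cells (NSC, 46C cells grown in EGF and FGF-2 to passage 15) and neural progenitors (NPC, 46C cells sorted for Sox1-GFP after 6 days in N2B27). The other 34 of the 54 samples were not analysed here.

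TALE proteins carry a homeodomain with a lengthened loop and act as DNA-binding partners of HOX proteins. Pbx proteins bind DNA together with HOX proteins, while Meis and Pknox (also called Prep) proteins dimerize with Pbx, keep it in the nucleus and add a further DNA contact. In the mouse hindbrain these complexes act on Hox genes themselves, and Meis2 is known as an RA-induced gene of embryonal carcinoma cells.

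Values are FPKM, sequenced fragments scaled by transcript length and library depth, so levels of different genes may be set side by side. Judged by the spacing of low values, the RA libraries hold about 9.0 to 16.35 M reads, with KO-i at day 2 the shallowest. The lowest member value of the set, Meis3 at 2.26 FPKM in WT-2 at day 2, rests on about 26.9 reads per kilobase. Haunt, listed as Gm15055, read 1.13 and 0 FPKM in 58 kb KO against 128 and 142 in WT at day 2, and 3.08 and 0.447 in 58 kb KO against 31.8 and 40.6 in WT at day 4. The mutant libraries thus carry little or none of it. KO-i also differed from WT in the median of some chromosomes. This was largest on chromosome 1, at 0.29 log2 units at day 4 and 0.31 at day 2, where KO-j lay at -0.02 and 0.01. On chromosome 14 KO-i lay at 0.09 at day 4 and 0.14 at day 2. KO-j differed most on chromosome 6, which carries HOXA and Haunt, with 0.15 at day 4 and 0.20 at day 2, where KO-i lay at 0.06 and 0.09. On chromosome X, KO-i and KO-j lay at -0.12 and -0.10 at day 4. On the members' own chromosomes the knockout libraries' medians lay between -0.02 and 0.05.

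Between days 2 and 4 of RA the Meis genes rose together in both genotypes. Meis1, Meis2 and Meis3 were about 2.05-, 2.29- and 2.26-fold higher at day 4 in 58 kb KO cells and 2.75-, 2.69- and 4.83-fold higher in WT cells by their mean FPKM. Of the Pknox genes, Pknox2 rose in both genotypes, and Pknox1 passed the test in WT. No Pbx gene passed in either genotype. On the log2(FPKM + 1) scale, tested with limma across 15705 genes at an adjusted p of 0.05, 4 of 8 members rose in 58 kb KO and 5 of 8 in WT, and none fell. Over all genes 10.0% rose and 7.81% fell in 58 kb KO, and 14.4% rose and 10.9% fell in WT. The members' median change was 0.59 in 58 kb KO and 0.65 in WT, against 0.04 over all genes in each. Every day 4 library exceeded every day 2 library for 7 of 8 members in 58 kb KO, all but Pbx4, and for 6 of 8 in WT, all but Pbx2 and Pbx4, while Pbx4 was lower without overlap in WT. The same held upward for 32.8% of all genes in 58 kb KO and for 37.6% in WT, and downward for 31.2% in WT.

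Meis1, a HOX cofactor in blood, limb and hindbrain, read 27.4 and 37.7 FPKM at day 4 against 14.4 and 17.4 at day 2 in 58 kb KO cells. In WT cells it read 43.5 and 51.7 at day 4 against 17.1 and 17.6 at day 2. The days did not overlap in either genotype, and the log2 change was 0.98 in 58 kb KO (SE 0.172, limma adjusted p = 0.0122) and 1.40 in WT (SE 0.172, adjusted p = 0.00197). Meis2 read 45.7 and 53.5 FPKM at day 4 against 23.6 and 19.7 at day 2 in 58 kb KO cells. The WT libraries had 53.6 and 55.3 at day 4 against 20.6 and 19.9 at day 2. All day 4 libraries were thus high and close to each other, with log2 changes of 1.16 (SE 0.123, adjusted p = 0.00289) in 58 kb KO and 1.38 (SE 0.123, adjusted p = 0.000713) in WT. Meis3, known for hindbrain patterning in Xenopus, was the low member of the trio. It read 9.07 and 8.30 FPKM at day 4 against 4.36 and 3.33 at day 2 in 58 kb KO cells. WT cells showed 12.6 and 15.9 at day 4 against 3.66 and 2.26 at day 2. Its change was 1.01 in 58 kb KO (SE 0.213, adjusted p = 0.0211) and 1.96 in WT (SE 0.213, adjusted p = 0.00135). The Meis3 call in 58 kb KO was lost without KO-j at day 2 (adjusted p = 0.103), without KO-i at day 4 (0.0878) and without KO-j at day 4 (0.0506). Without the filter on low values, which left 38363 entries in the test, it was lost as well (0.122), as was that of Meis1 in 58 kb KO (0.0928).

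The promoters of this trio, which rose together, are shown for the 250 bases before the gene's start, from RefSeq on GRCm38.p6 and in the direction of the gene, with each CG pair in capitals. Promoter windows were at hand for 5 of the 8 members.
Meis1 (chr11:19018970-19019219, minus strand): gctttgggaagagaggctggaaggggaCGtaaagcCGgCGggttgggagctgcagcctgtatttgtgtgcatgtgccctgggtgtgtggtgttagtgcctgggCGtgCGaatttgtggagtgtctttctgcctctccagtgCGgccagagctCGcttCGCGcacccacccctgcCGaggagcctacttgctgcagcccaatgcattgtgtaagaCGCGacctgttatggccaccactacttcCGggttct
Meis2 (chr2:116064620-116064869, minus strand): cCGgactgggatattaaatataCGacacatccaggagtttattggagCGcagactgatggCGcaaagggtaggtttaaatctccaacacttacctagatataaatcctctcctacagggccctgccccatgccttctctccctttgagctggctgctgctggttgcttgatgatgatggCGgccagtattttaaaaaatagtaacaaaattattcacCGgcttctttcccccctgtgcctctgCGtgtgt
Meis3 (chr7:16175145-16175394, plus strand): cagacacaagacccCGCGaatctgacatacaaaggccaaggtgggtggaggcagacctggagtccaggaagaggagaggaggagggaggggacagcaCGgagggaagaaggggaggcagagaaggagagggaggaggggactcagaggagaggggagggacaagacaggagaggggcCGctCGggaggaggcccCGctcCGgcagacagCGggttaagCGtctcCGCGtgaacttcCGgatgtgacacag
These windows hold 13, 7 and 12 CG pairs for Meis1, Meis2 and Meis3, against 27 for Pbx2, 12 for Pbx4 and a median of 6 over 32851 promoters of the same length. The 3 Meis windows thus lie above the median of all promoters, with Pbx2 further up, past 91.4% of them. On either strand, TGACAG, the core bound by Meis and Pknox proteins, occurs in 15.9% of all promoter windows. TGATNNAT, a core of Pbx and HOX dimers, occurs in 7.68%, and AGGTCA, the half-site of nuclear receptors, in 14.0%. None of these letters occurs in the windows of the 5 members, which says nothing of sites elsewhere.

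Pknox2 (Prep2), a Meis-like partner of Pbx, read 7.59 and 8.40 FPKM at day 4 against 4.45 and 4.44 at day 2 in 58 kb KO cells. In WT it stood at 8.77 and 9.85 at day 4 against 4.96 and 4.57 at day 2. It rose by 0.72 in 58 kb KO (SE 0.133, limma adjusted p = 0.0137) and by 0.84 in WT (SE 0.133, adjusted p = 0.00498), and the 58 kb KO call was lost without KO-j at day 2 (adjusted p = 0.0604). Pknox1 (Prep1), broadly expressed and needed for early mouse development, read 9.13 and 10.4 FPKM at day 4 against 7.68 and 8.26 at day 2 in 58 kb KO cells. The WT values were 12.2 and 11.6 at day 4 against 7.84 and 8.80 at day 2. Its change was 0.26 in 58 kb KO (adjusted p = 0.191) and 0.47 in WT (SE 0.127, adjusted p = 0.0321). The WT call was lost without any 1 of the 4 WT libraries (adjusted p = 0.0827 to 0.159) and without the filter (0.0560). The test of the difference between the genotypes did not pass (-0.21, adjusted p = 0.942).

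Pbx2, a broadly expressed Pbx gene, was the most abundant member, at 72.5 and 66.5 FPKM at day 4 against 64.3 and 54.6 at day 2 in 58 kb KO cells. WT cells had 60.8 and 54.5 at day 4 against 59.8 and 38.6 at day 2. The WT days overlapped, and the change of 0.26 in WT (95% interval -0.20 to 0.71) lay within the spread, as did the 0.23 in 58 kb KO (-0.23 to 0.68). Pbx3, which newborn mice need for breathing, read 11.4 and 11.5 FPKM at day 4 against 7.20 and 9.04 at day 2 in 58 kb KO cells. For WT cells the values were 12.6 and 11.4 at day 4 against 9.01 and 9.90 at day 2. All day 4 libraries exceeded those of day 2, yet 0.45 in 58 kb KO (adjusted p = 0.0614) and 0.31 in WT (adjusted p = 0.140) did not pass. Pbx4, known in the mouse for expression in the testis, read 6.78 and 7.98 FPKM at day 4 against 4.29 and 9.33 at day 2 in 58 kb KO cells. The WT libraries read 5.31 and 4.84 at day 4 against 7.13 and 7.28 at day 2. Here the WT libraries were lower at day 4 (-0.43, adjusted p = 0.301), while KO-i and KO-j differed from each other at day 2 by more than the group means did. The KO-i value there rests on about 38.6 reads per kilobase.

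**Figure D1:**
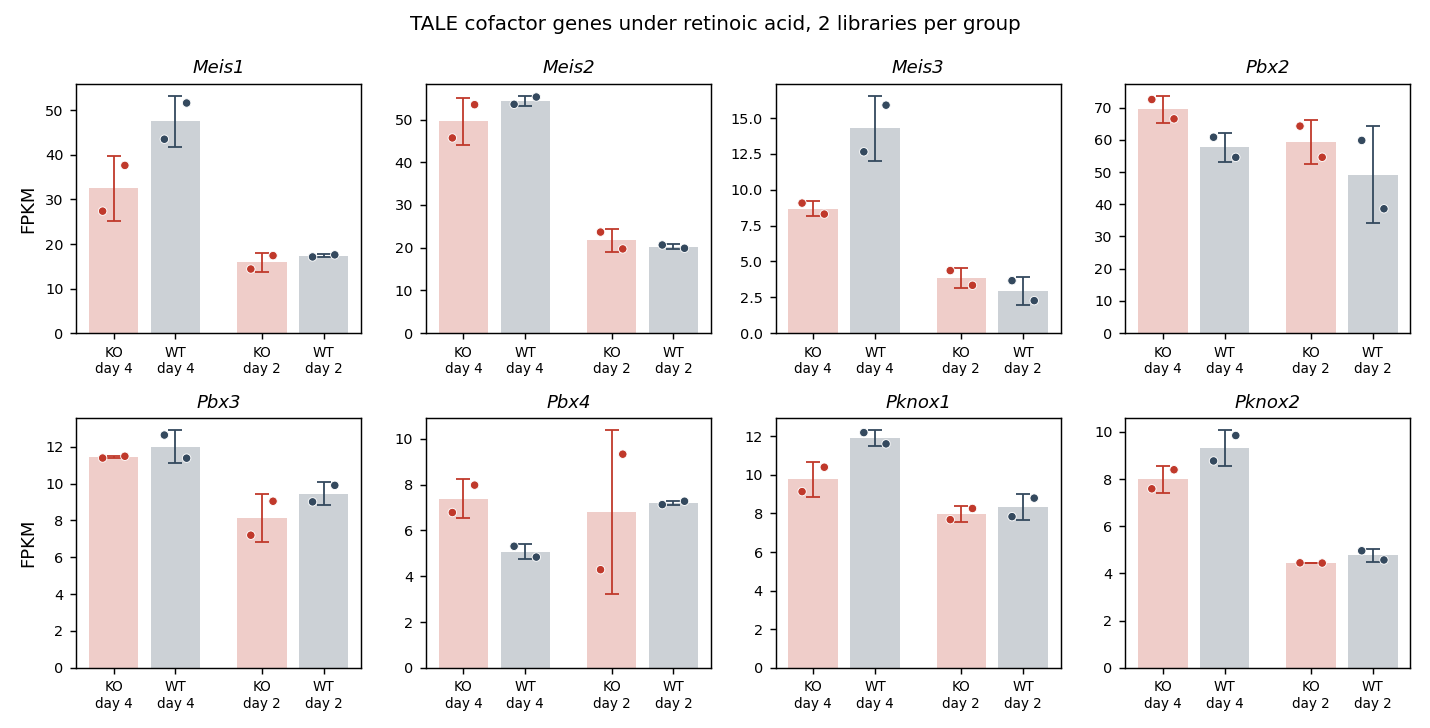
Level of each gene in FPKM (y axis, from 0, with its own scale per panel) in 58 kb KO (red) and WT (grey) cells at days 4 and 2 of RA; points are libraries, bars means and whiskers the SD (n = 2). The Meis genes and Pknox2 stand higher at day 4 in both genotypes, while Pbx2 stays at 38.6 to 72.5 FPKM throughout.

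By mean level, Pbx2, Meis2 and Meis1 formed an upper group and the other 5 genes a lower one. In 58 kb KO cells at day 4 the order was Pbx2 (69.5 ± 4.24 FPKM), Meis2 (49.6 ± 5.51), Meis1 (32.5 ± 7.27), Pbx3 (11.4 ± 0.0687), Pknox1 (9.77 ± 0.894), Meis3 (8.68 ± 0.542), Pknox2 (7.99 ± 0.571) and Pbx4 (7.38 ± 0.846; SD, n = 2 each). There Meis3 overlapped Pknox2, and Pknox2 overlapped Pbx4. In WT cells at day 4 it was Pbx2 (57.7 ± 4.42), Meis2 (54.4 ± 1.21), Meis1 (47.6 ± 5.75), Meis3 (14.3 ± 2.30), Pbx3 (12.0 ± 0.888), Pknox1 (11.9 ± 0.413), Pknox2 (9.31 ± 0.762) and Pbx4 (5.07 ± 0.335; SD, n = 2 each). There Pbx2 overlapped Meis2, and Pbx3 overlapped Pknox1. Meis3 was the 1 member whose place in this order differed by more than 1 between the genotypes.

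Marker genes of other cells moved over the same days. The 7 ES cell markers summed to 115 and 196 FPKM at day 4 against 773 and 1388 at day 2 in 58 kb KO cells, and to 168 in both WT libraries at day 4 against 1362 and 1608 at day 2. Of them 6 fell in each genotype. The 7 markers of extraembryonic endoderm (Gata4, Gata6, Sox17, Sox7, Afp, Ttr and Apoa1) summed to 63.9 and 75.4 FPKM at day 4 against 30.3 and 37.2 at day 2 in 58 kb KO cells, with 2 of 7 that rose and Afp and Ttr listed at 0 in KO-j at day 2. In WT cells they summed to 129 and 154 at day 4 against 36.6 and 53.6 at day 2, with 6 of 7 that rose. The 5 trophoblast markers (Cdx2, Krt7, Krt8, Krt18 and Tfap2c) summed to 78.2 and 122 FPKM at day 4 against 31.5 and 32.9 at day 2 in 58 kb KO cells, and to 200 and 319 at day 4 against 33.9 and 26.6 at day 2 in WT cells. In each genotype 3 of these 5 rose, the keratin genes Krt7, Krt8 and Krt18, and Tfap2c fell. The part of such cells in the members' changes was not tested, and in bulk RNA fewer cells of a type and less RNA per cell cannot be told apart. The neural progenitor list held 6 markers (Sox1, Pax6, Nes, Zic1, Sox3 and Pou3f2). Their sum was 61.8 and 63.3 FPKM at day 4 against 39.0 and 38.2 at day 2 in 58 kb KO cells. The WT sums were 72.0 and 63.5 at day 4 against 56.3 and 40.2 at day 2. Of the 5 that could be tested, Pax6, Nes and Zic1 rose in 58 kb KO and none fell. Pax6 and Nes rose and Sox3 fell in WT.

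In 58 kb KO against WT cells no member passed the test on either day. At day 4 Meis1 and Meis3 had the lowest values in 58 kb KO relative to WT, at 68.3% and 60.8% of the WT mean, and Pbx4 and Pbx2 the highest, at 146% and 121%. At day 2 Meis1 stood at 91.7%, Pbx4 at 94.5% and Pbx2 at 121%, while Meis3 was at 129.98%, so Pbx2 was about as far from WT on both days. With limma at an adjusted p of 0.05, 0 of 8 members passed on day 2, where 0.00637% of all genes passed as higher and 0.0191% as lower. On day 4 it was 0 of 8 members, and 0.0% of all genes in either direction. Haunt itself passed on day 2 (log2 fold change -6.54, adjusted p = 0.0153) but not on day 4 (-3.93, adjusted p = 0.128). A lack of calls on day 4 thus does not show that genes were unchanged. At an unadjusted p under 0.05 there were 0 members of 8 on day 2, with 5.11% of all genes, and 2 of 8 on day 4, Meis1 and Meis3, with 14.4% of all genes. The members' median was -0.07 on day 2 and -0.17 on day 4, against 0.04 and 0.02 over all genes.

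At day 4 Meis1 read 27.4 and 37.7 FPKM in 58 kb KO against 43.5 and 51.7 in WT, with no overlap. The log2 fold change was -0.55 (SE 0.172, 95% interval -0.95 to -0.15, limma adjusted p = 0.249, 0.108 to 0.716 over the alternatives). It was -0.33 without KO-i at day 4 and -0.77 without KO-j. Meis3 read 9.07 and 8.30 FPKM in 58 kb KO against 12.6 and 15.9 in WT, with -0.65 (SE 0.213, interval -1.15 to -0.15, adjusted p = 0.262, 0.236 to 0.725 over the alternatives). These differences exceeded the spread between the libraries but did not hold over all genes tested. Meis2 stayed closer, at 45.7 and 53.5 FPKM in 58 kb KO against 53.6 and 55.3 in WT (-0.14, interval -0.42 to 0.15). Pknox1 at 9.13 and 10.4 in 58 kb KO against 12.2 and 11.6 FPKM in WT (-0.26, interval -0.56 to 0.03) and Pknox2 at 7.59 and 8.40 in 58 kb KO against 8.77 and 9.85 in WT (-0.20, interval -0.51 to 0.11) were lower in each 58 kb KO library. Pbx2 at 72.5 and 66.5 in 58 kb KO against 60.8 and 54.5 FPKM in WT (0.27, interval -0.19 to 0.72) and Pbx4 at 6.78 and 7.98 in 58 kb KO against 5.31 and 4.84 in WT (0.46, interval -0.20 to 1.12) were higher in each. Pbx3 overlapped between the genotypes (-0.06, interval -0.39 to 0.26). In all, 5 of 8 members had every 58 kb KO library below every WT library and 2 of 8 above, against 21.7% and 24.9% of all genes.

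Marker genes of other cells differed in the same libraries. At day 4 the 7 extraembryonic endoderm markers summed to 63.9 and 75.4 FPKM in 58 kb KO against 129 and 154 in WT. The 5 trophoblast markers summed to 78.2 and 122 FPKM in 58 kb KO against 200 and 319 in WT. The largest values in that sum were the means of Krt8 (42.2 in 58 kb KO against 125 in WT) and Krt18 (52.4 against 124). Tfap2c had a higher mean in 58 kb KO (1.41 against 0.732 FPKM). Sox17, of the endoderm list, differed little (4.26 in 58 kb KO against 4.55 in WT). None of the 12 genes of these lists passed on its own, and none was listed at 0 at day 4. Their part in the lower Meis1 and Meis3 values was not tested.

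At day 2 the values of the members in 58 kb KO and WT overlapped for 7 of 8 genes. Pknox2 did not, at 4.45 and 4.44 FPKM in 58 kb KO against 4.96 and 4.57 in WT (-0.08, 95% interval -0.39 to 0.23), where 13.9% of all genes were lower without overlap and 23.1% higher. Meis1 read 14.4 and 17.4 FPKM in 58 kb KO against 17.1 and 17.6 in WT (-0.12, interval -0.53 to 0.28), and Meis2 23.6 and 19.7 in 58 kb KO against 20.6 and 19.9 in WT (0.09, interval -0.20 to 0.38). Meis3 at 0.31 (interval -0.19 to 0.80) and Pbx2 at 0.30 (interval -0.16 to 0.75) had the largest fold changes of the 8, both toward higher values in 58 kb KO. The intervals leave room for changes of over 0.5 log2 units in Meis1, Meis3, Pbx2, Pbx3 and Pbx4. The test of the difference of the 58 kb KO effect between days found no member either. Meis3 came nearest, at -0.96 (SE 0.302, interval -1.66 to -0.25, limma adjusted p = 0.791) and was the only 1 of 8 at an unadjusted p under 0.05, with 5.56% of all genes.

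**Figure D2:**
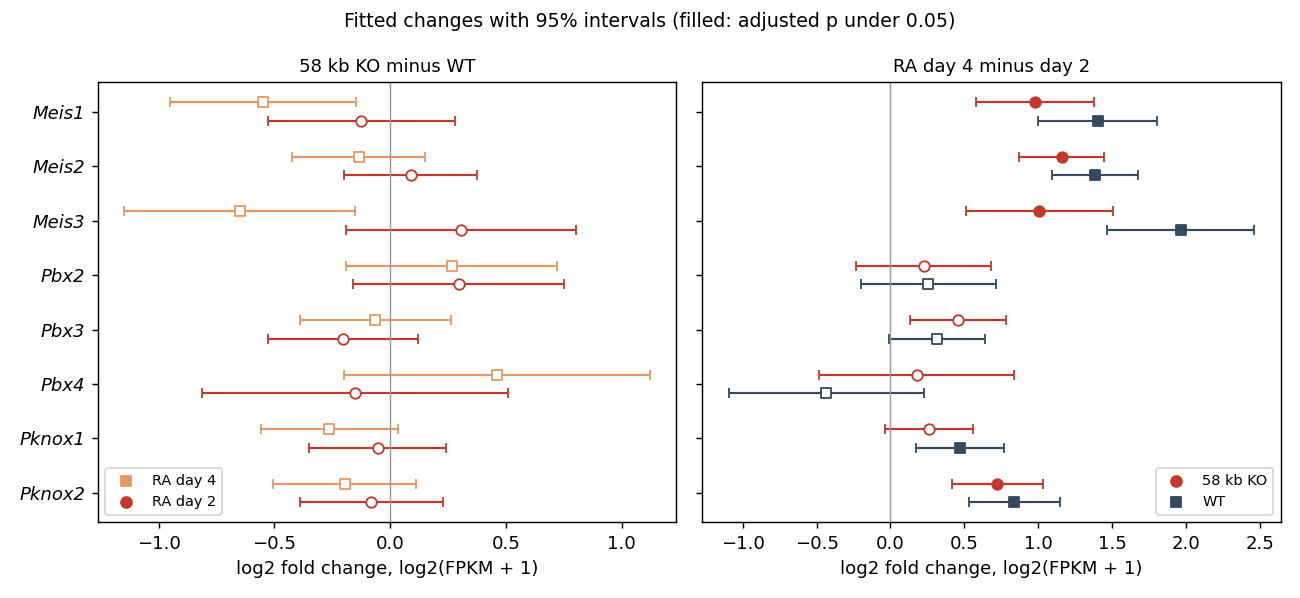
Fitted log2 change of each gene (x axis, log2(FPKM + 1)) with its 95% interval, on the left 58 kb KO minus WT at days 4 (orange squares) and 2 (red circles) of RA, on the right day 4 minus day 2 in 58 kb KO (red circles) and WT (grey squares). Filled points passed an adjusted p of 0.05: on the left none, on the right Meis1, Meis2, Meis3 and Pknox2 in both genotypes and Pknox1 in WT.

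On withdrawal of LIF the members followed another order, with Meis3 the most abundant member at days 4 and 6. This table has 1 column per condition, so the values are a description with no test, and a change is counted where it passes 1 log2 unit on the log2(FPKM + 1) scale. The table was normalized separately from the RA table and its libraries were strand-marked, so levels are not compared across the tables. Meis3 read 3.81, 11.1, 33.1 and 36.0 FPKM at days 0, 2, 4 and 6, which is 9.45-fold at day 6 against day 0. Pbx3 read 5.69, 14.9, 18.6 and 21.2 FPKM over the same days. Both were past the threshold by day 2, as were Meis1 (1.49) and Meis2 (1.07) with a pseudocount of 0.1 in place of 1. Meis2 followed, at 0.900, 2.01, 4.82 and 5.85 FPKM, and Pknox2 at 0.547, 0.645, 1.82 and 3.57. Meis1 stayed low, at 0.299, 1.02, 0.744 and 1.59 FPKM, and ended 5.32-fold higher at day 6 than at day 0. That is 0.996 log2 units, just inside the threshold, or 2.08 with a pseudocount of 0.1. Pbx2 had 7.19, 7.44, 5.88 and 13.1 FPKM, and Pbx4 had 1.54, 1.26, 0.568 and 1.11. Pknox1 differed from its relative Pknox2, with lower values at later days, at 6.00, 4.27, 3.22 and 3.35 FPKM. Thus 2, 3 and 4 of 8 members were past the threshold as higher at days 2, 4 and 6 against day 0, where 4.58%, 6.53% and 11.4% of 14189 genes were, and none as lower, where 5.07%, 8.62% and 6.97% were. With a pseudocount of 0.1, Pbx4 was past it as lower at day 4 (-1.29). The day 4 column is 1 library of CJ7 and the others are means over mixtures of lines, so line and day cannot be told apart there.

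The derived populations overlapped in the TALE genes that were past the threshold as higher against day 0. Meis2, Pbx3 and Pknox2 were so in ME, NSC and NPC, Meis3 in ME and NPC, Meis1 in NSC and NPC, and Pbx2 in NPC. NSC had lower Meis2 and Meis3 than NPC with more Pknox1. They come from other ES lines than the day 0 cells, so in comparisons with day 0 line and cell type cannot be told apart. The libraries carried the markers of their labels. T and Mixl1 read 192 and 115 FPKM in ME, against 204 and 67.1 in the unsorted cells at day 4 of LIF withdrawal. T thus did not set ME apart from day 4. Fabp7 and Olig2 read 1227 and 211 FPKM in NSC, and Sox1 and Pax6 read 21.8 and 55.9 in NPC. NPC also held Pou5f1 at 91.0 FPKM, against 997 at day 0, and ME held it at 486.

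In ME, Meis3 read 73.9 FPKM against 3.81 at day 0 (log2 change 3.96), Pbx3 37.9 against 5.69 (2.54), Meis2 6.22 against 0.900 (1.93) and Pknox2 4.55 against 0.547 (1.84). Meis1 was at 0.603 FPKM in ME against 0.299 at day 0. Pbx4 was nearly absent, at 0.0222 FPKM against 1.54 at day 0 (-1.31), which rests on about 0.904 reads per kilobase in a library of about 40.65 M reads. In ME 4 of 8 members were thus past the threshold as higher and 1 as lower, against 9.2% and 10.7% of all genes.

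In NPC, Meis2 read 108 FPKM against 0.900 at day 0 (log2 change 5.85), Meis3 102 against 3.81 (4.42) and Meis1 26.8 against 0.299 (4.42). Pbx3 read 46.0 FPKM against 5.69 (2.81), Pknox2 10.2 against 0.547 (2.86) and Pbx2 17.2 against 7.19 (1.15). Each of these 6 genes, and Pbx4, had its highest value of the 7 columns in NPC, and 6 of 8 members were past the threshold as higher and 0 as lower, against 14.7% and 11.7% of all genes. Pknox1 at 5.16 FPKM against 6.00 at day 0 and Pbx4 at 2.17 against 1.54 were not.

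In NSC against NPC, Meis3 read 7.49 FPKM against 102 (log2 change -3.60) and Meis2 13.3 against 108 (-2.93), so that NPC held 13.6 and 8.14 times as much. Pbx2 at 5.50 against 17.2 FPKM in NPC (-1.49) and Pbx3 at 22.2 against 46.0 in NPC (-1.02, and -0.99 with median-of-ratios scaling) were also lower in NSC. Meis1 was nearer, at 15.4 FPKM in NSC against 26.8 in NPC (-0.76). Pknox1 alone was past the threshold as higher in NSC, at 11.7 against 5.16 FPKM in NPC (1.04), and this was its highest value of the table. In all 1 member was higher and 4 lower in NSC, against 12.0% and 11.2% of all genes. Against day 0, 4 members were past the threshold as higher in NSC (Meis1, Meis2, Pbx3 and Pknox2) and 0 as lower, against 20.5% and 16.5% of all genes.

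**Figure D3:**
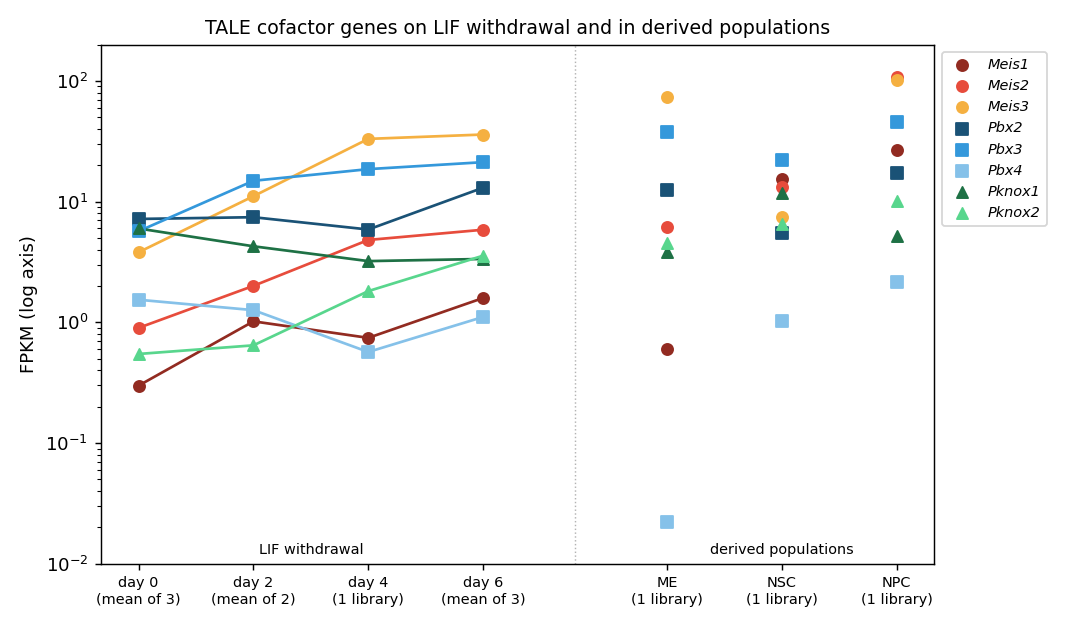
Level of each gene in FPKM (log axis) at days 0, 2, 4 and 6 of LIF withdrawal (joined points) and in mesendoderm (ME), neural stem cells (NSC) and neural progenitors (NPC); circles are Meis, squares Pbx and triangles Pknox genes, with 1 deposited value each and no error. Meis3 stands at 36.0 FPKM at day 6 against 3.81 at day 0 and at 102 in NPC, and Pbx4 is lowest in ME, at 0.0222.

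The make-up of each family differed between the settings. Shares of the summed FPKM within a column do not depend on how the tables were scaled, although the library kits differed. Of the summed Meis FPKM, Meis3 took 76.1%, 78.6%, 85.6% and 82.9% at days 0, 2, 4 and 6 of LIF withdrawal and 91.5% in ME, but 20.7% in NSC and 43.0% in NPC. Under RA it took 8.35% to 11.0% in 58 kb KO and 11.5% to 12.9% in WT at day 4, and 8.24% to 10.3% in 58 kb KO and 5.70% to 8.84% in WT at day 2. Meis2 was the leading Meis gene in every RA library, at 45.0% to 55.8%. Meis1 took 33.3% and 37.9% in 58 kb KO against 39.7% and 42.1% in WT at day 4, while its share was 0.748% in ME and at most 7.22% over the LIF days. NSC, with 42.6% Meis1, was the column of the LIF table nearest to the RA libraries in that share.

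**Figure D4:**
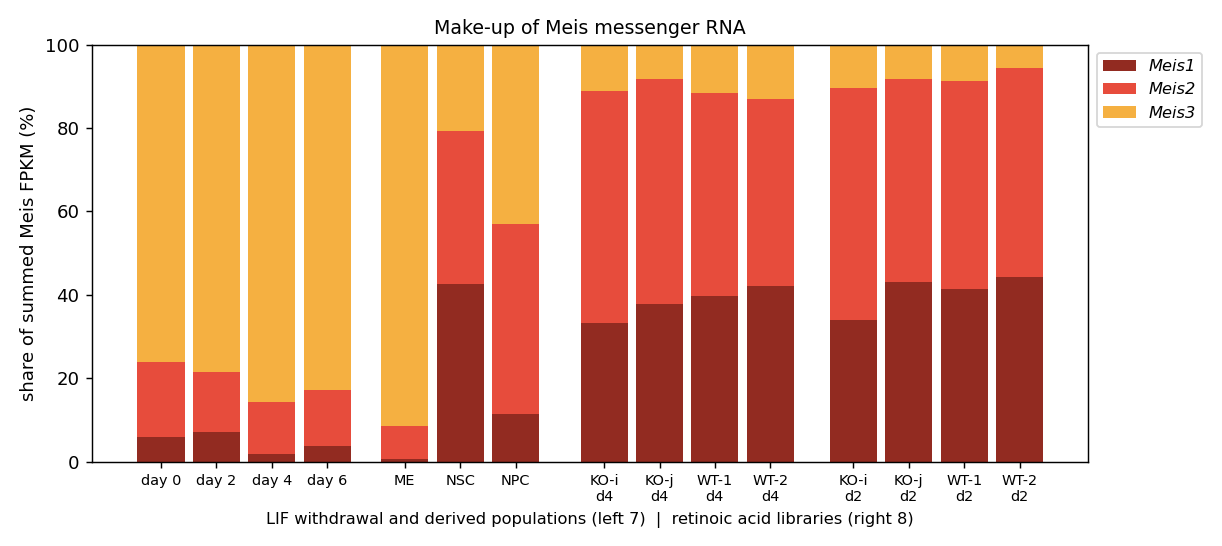
Share of the summed Meis FPKM (y axis, percent) taken by Meis1, Meis2 and Meis3 in each column of the LIF table (left 7 bars) and in each RA library (right 8 bars, d4 and d2 for the day). Meis3 takes 76.1% to 91.5% in the LIF days and ME and at most 12.9% in the RA libraries.

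Among the Pbx genes, Pbx2 led in every RA library, with 69.2% to 84.8% of the summed FPKM of the 3 genes. In the LIF table it led at day 0 (49.9%), and Pbx3 led from day 2 on and in all derived populations, with 60.0% to 77.3%. Pknox2 took 8.37%, 13.1%, 36.1% and 51.6% of the Pknox sum at days 0, 2, 4 and 6 of LIF withdrawal. Its share was 54.5% in ME, 36.0% in NSC and 66.4% in NPC. In the RA libraries it took 41.8% to 45.9% at day 4 and 34.2% to 38.8% at day 2.

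The HOX genes that pair with these cofactors were measured in the same libraries, from a list of 15 genes of paralogue groups 1 to 5. The counts of this and the next lists stand against the 10.0% of all genes that rose and 7.81% that fell in 58 kb KO, and the 14.4% and 10.9% in WT. Between days 2 and 4 of RA 9 rose and 1 fell in 58 kb KO (median 0.84) and 7 rose and 1 fell in WT (median 0.68). Hoxa5, Hoxa4, Hoxd4, Hoxa2, Hoxb3 and Hoxc4 rose in both, and Hoxb1, an early RA-induced gene of the hindbrain, fell in both. Hoxb1 read 58.5 and 46.9 FPKM at day 4 against 136 and 117 at day 2 in 58 kb KO cells, and 38.1 and 17.3 at day 4 against 121 and 88.6 at day 2 in WT cells. In 58 kb KO against WT 1 of the 15 passed at day 2 and 0 at day 4. It was Hoxa5, at 22.7 and 22.2 FPKM in 58 kb KO against 73.2 and 84.4 in WT at day 2 (log2 fold change -1.76, limma adjusted p = 0.0202). With any 1 of the 4 libraries of day 2 left out, 0 of all genes passed in that comparison, Hoxa5 included, and reads of genes that overlap within the cluster cannot be told apart in these libraries. In the LIF table these HOX genes were low through day 6, with at most 2.94 FPKM (Hoxb2 at day 6), while Meis3 and Pbx3 were already at 36.0 and 21.2 FPKM. In NSC, Hoxa2 (16.7 FPKM), Hoxa5 (9.22) and Hoxa3 (9.13) were present, and in NPC Hoxa2 (24.6), Hoxb2 (14.0) and Hoxb3 (10.8).

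Of 11 genes listed as targets or partners of Meis and Pbx, 8 could be tested, and between days 2 and 4 of RA 5 rose and 1 fell in each genotype (median 0.86 in 58 kb KO and 1.10 in WT). They share Hoxa2, Hoxb1 and Hoxb2 with the HOX list. Pax6, an eye and neural tube regulator with Meis sites, read 29.3 and 29.7 FPKM at day 4 against 16.8 and 14.4 at day 2 in 58 kb KO cells (0.88, adjusted p = 0.0302). WT libraries gave 41.8 and 33.8 at day 4 against 19.4 and 12.0 at day 2 (1.25, adjusted p = 0.00646). Pbxip1, which encodes a Pbx-binding protein, rose by 0.86 in 58 kb KO and by 1.02 in WT. Of 7 tested genes among the other TALE homeobox genes (Tgif, Irx and Mkx), 1 rose and 1 fell in 58 kb KO (median 0.09) and 4 rose in WT (median 0.89). The counts of 1 in 58 kb KO are near the share of all genes. Tgif2, a repressor of the TGF-beta pathway, rose in both, at 33.9 and 32.3 FPKM at day 4 against 20.9 and 20.3 at day 2 in 58 kb KO cells and 33.4 and 32.9 at day 4 against 20.0 and 15.2 at day 2 in WT cells. Irx1, Irx3 and Irx5 rose in WT, and Mkx fell in 58 kb KO, at 0.940 and 0.710 FPKM at day 4 against 2.03 and 1.89 at day 2 (-0.70, adjusted p = 0.0489). Irx3 read 5.35 and 13.0 FPKM in 58 kb KO against 15.2 and 24.4 in WT at day 4 (-1.11, adjusted p = 0.288). Of 10 retinoid genes 5 rose in each genotype, among them the receptor gene Rarb (1.72 in 58 kb KO and 2.27 in WT) and Cyp26b1, which encodes an RA-degrading enzyme (2.34 in 58 kb KO and 1.90 in WT). None of these lists had a member that passed in 58 kb KO against WT on either day.

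Genes whose pattern over the 8 RA libraries was most like that of a member were named for the 3 members that varied enough, by Pearson's r of log2(FPKM + 1) among 1048 genes. For Meis1 they were Zbtb7c (r = 0.997), Tgfbr3 (0.995) and Phldb2 (0.994), for Meis2 Peg3 (0.998), Large (0.997) and Pkdcc (0.996), and for Meis3 Gsn (0.993), Slit3 (0.989) and Lpar3 (0.988). With 2 days that differ in many genes, 138, 232 and 141 genes reached r = 0.95 with Meis1, Meis2 and Meis3, so that such likeness is common here. Tgfbr3, a co-receptor of the TGF-beta family, read 7.95 and 9.82 FPKM in 58 kb KO against 12.2 and 16.2 in WT at day 4, with the same order of libraries as Meis1. Slit3, which encodes a guidance ligand, read 7.95 and 9.10 FPKM in 58 kb KO against 18.3 and 24.8 in WT at day 4. Both genes were picked for likeness over these same 8 libraries, so their values are no separate support for the differences in Meis1 and Meis3.

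By their listed spans on mm9, Meis1 (NM_001193271) lies on chromosome 11 from 18780431 to 18918972, Meis2 (NM_001136072) on chromosome 2 from 115687000 to 115890794 and Meis3 (NM_001277988) on chromosome 7 from 16760674 to 16771852. Pbx2 (NM_017463) lies on chromosome 17 from 34729416 to 34734286, Pbx3 (NM_016768) on chromosome 2 from 34027429 to 34227556 and Pbx4 (NM_001024954) on chromosome 8 from 72356603 to 72396191. Pknox1 (NM_016670) lies on chromosome 17 from 31701718 to 31744638 and Pknox2 (NM_001029838) on chromosome 9 from 36698567 to 36954851. None lies on chromosome 6 with HOXA and Haunt. Although the RA libraries do not mark strand, no listed entry that overlaps a member averaged 1 FPKM in them.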

How the data were processed

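Values deposited by the authors were taken as FPKM because of their range and spacing, as the headers give no unit. Tools named without a role in the submitters' processing notes are TopHat2 2.0.11, Bowtie 1.0.0 and CASAVA, next to the genome build mm9, and the program that computed the FPKM is not given in these sources. The RA table holds a column per library. In the LIF table, 11 entries with a repeated symbol and 1 with a blank value were left out. Starts are printed from 1. Depths were estimated from the steps between low values and are approximate.

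For RA, log2(FPKM + 1) was fitted for 15705 genes that reached 1 FPKM in 2 or more of the 8 libraries, with limma 3.58.1 (R 4.3.3) over the 4 groups, using its intensity trend, with 4 degrees of freedom from the residuals and 3.5 from the prior. Genotypes were compared within each day and days within each genotype, and the genotype effect was compared between days. P-values were adjusted by Benjamini-Hochberg over all genes tested, at 0.05. A pseudocount understates changes of low genes. The fit was run on simulated data with a common spread for all genes, which does not measure its power on the real values. LIF columns have no test, and counts are over the 14189 genes that reached 1 FPKM in any column. Alternatives were a pseudocount of 0.1, no filter, median-of-ratios scaling, centring per chromosome, the library name as a block, and leaving out each library. The members, lists and marker genes were chosen with earlier results of these data known. All 8 members are named, with list members that passed or changed most, and the 3 genes of most like pattern for each member with an SD of at least 0.5.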

Additional observations from a re-analysis of the deposited data

How the results depend on the processing

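The members' counts of calls stayed within 1.5 times under every RA alternative, except day 4 against day 2 in 58 kb KO, where 2 of 8 passed without the filter on low values and 2 to 4 when a library was left out (4 as reported). Over all genes, dropping the filter gave 69 calls in 58 kb KO against WT at day 2 (4 as reported), 6 at day 4 (0 as reported, and 1 with a pseudocount of 0.1), 75 for the difference (0 as reported), 468 for the days in 58 kb KO (2802 as reported) and 2006 in WT (3973 as reported). Leaving out a library gave 0 to 5, 0 to 7, 0 to 1, 980 to 2159 and 1494 to 4273 calls for these in turn. No planned change of pseudocount, filter, scaling or centring turned a member's direction. Leaving out a library did so for fold changes that had not passed. In 58 kb KO against WT at day 2 the ranges were -0.253 to 0.0054 for Meis1, -0.0367 to 0.215 for Meis2, -0.0140 to 0.605 for Pbx2, -0.63 to 0.33 for Pbx4 and -0.128 to 0.0208 for Pknox1, and at day 4 -0.133 to 0.0065 for Pbx3. For the difference they were -0.34 to 0.28 for Pbx2 and -0.00614 to 0.287 for Pbx3. For day 4 against day 2 they were -0.31 to 0.66 for Pbx4 in 58 kb KO and -0.0536 to 0.566 for Pbx2 in WT. An arm left with 1 library is assumed to vary like the others. With a pseudocount of 0.1 in the LIF table, 4 members were past the threshold at day 2 (2 as reported) and 6 at day 4, 5 as higher and Pbx4 as lower (3 as reported, all higher), and over all genes 2691, 3696 and 4179 at days 2, 4 and 6, 4619 in ME and 4934 in NSC against NPC (1369, 2150, 2602, 2818 and 3288 as reported). The cause was not tested.

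Library names are shared by the days, and differences between same-named libraries correlated between days at r = 0.26 in 58 kb KO and 0.08 in WT, with 2 names per genotype. With the name as a replicate block, 4 members passed in 58 kb KO, 5 in WT and 0 for the difference, as without it, among 3705, 4783 and 0 genes.

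With 2 libraries a group, changes smaller than the printed intervals allow were not detectable, and the LIF table has no replicate columns.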
